A study of Homo sapiens with 2 samples.

Results

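The 8 genes CYLD, TSC1, DDX6, RAB5A, ATXN1, IRF1, ZFPM2 and CSF1, which have been reported as targets of the microRNA family of miR-130 and miR-301, were followed in a human hepatocellular carcinoma line. They were chosen by name, as all 26 probe sets whose platform annotation gave exactly 1 of these 8 symbols, out of 41091 probe sets and 19775 genes with a single symbol. No further probe set listed a member beside another gene. The cells were PLC8024 cells sorted by flow cytometry and labelled negative for the surface marker CD133, a label that refers to protein. The RNA of its gene, PROM1, stood at 9.19 on the log2 scale with the empty vector by its brightest probe set. The cells carried either a lentiviral miR-130b or an empty lentiviral vector. The label of the miR-130b sample also speaks of a transfection. Each condition was measured on 1 array of total RNA, so both groups share the line, the sort and the transduction, and every difference below is a difference between 2 arrays with 0 replicates. No p-value or error between cultures can be given, and the level of miR-130b itself was not analysed here.

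A microRNA pairs with its target transcripts mainly through its seed, the bases near its 5′ end, and recruits factors that shorten the poly(A) tail, remove the cap and repress translation. An expression array records the loss of transcript only, not the repression of translation. The reported targets serve different processes. CYLD and IRF1 act in NF-kappaB and interferon signalling, TSC1 and CSF1 in growth control and myeloid cytokine signalling, RAB5A in endocytosis, ATXN1 and ZFPM2 in transcriptional repression, and DDX6 in the same decapping machinery that microRNAs use.

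The microRNA sequences are shown because the seed is the feature by which the family is defined. They are RefSeq entries of GRCh38.p14, printed 5′ to 3′ with bases 2 to 8 in capitals. The mature hsa-miR-130b-3p lies on the plus strand at chr22:21653354-21653375 and occupies bases 51 to 72 of the 82-base MIR130B hairpin. Upstream on the same strand lies hsa-miR-301b-3p, at chr22:21653025-21653047, and on the minus strand of another chromosome lie hsa-miR-301a-3p, at chr17:59151149-59151171, and hsa-miR-454-3p, at chr17:59137787-59137809.
hsa-miR-130b-3p: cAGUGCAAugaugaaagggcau
hsa-miR-301b-3p: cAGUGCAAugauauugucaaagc
hsa-miR-301a-3p: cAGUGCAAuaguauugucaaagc
hsa-miR-454-3p: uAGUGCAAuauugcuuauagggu
hsa-miR-130b-5p: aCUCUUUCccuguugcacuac
The 4 3p sequences have the same seed, whose complement in a transcript reads UUGCACU. Of 2370 mature names in the RefSeq table, 6 carry it, the other two being hsa-miR-3666 and hsa-miR-4295; the table is not complete, and hsa-miR-130a-3p is not counted. Counted from the 5′ end without gaps and with the seed included, miR-301b-3p matches miR-130b-3p at 13 positions, miR-301a-3p at 11 and miR-454-3p at 10. The unbroken match from the first base covers 12 bases in miR-301b-3p and 9 in miR-301a-3p, while miR-454-3p already differs at its first base. The 5p strand of the miR-130b hairpin has another seed. Transcript sequences of the 8 genes were not used here, so no seed match was located in them.

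No member differed by 1.5-fold in either direction. A probe set was called measured when its brighter array reached 4.88, the median of all non-control values on the log2 scale, and a gene was represented by its brightest measured probe set. All members but ZFPM2, 7 in number, were measured, through 17 of the 26 probe sets. By the brightest probe set 3 members were lower in the miR-130b array and 4 were higher, with 0 at least 1.5-fold lower and 0 at least 1.5-fold higher. Among all 13260 measured genes 2.68% were at least 1.5-fold lower and 0.294% at least 1.5-fold higher, so a count of 0 among 7 genes lies close to that background. At a milder bound of 0.32 on the log2 scale the members again gave 0 in each direction, against 6.24% of measured genes lower and 5.05% higher. Taking every one of the 26 probe sets without a floor, 0 were at least 1.5-fold lower and 0 at least 1.5-fold higher, against 1.83% and 0.241% of all 41091 probe sets with a single symbol. In bulk RNA, fewer cells of a kind and less transcript per cell cannot be told apart.

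**Figure D1:**
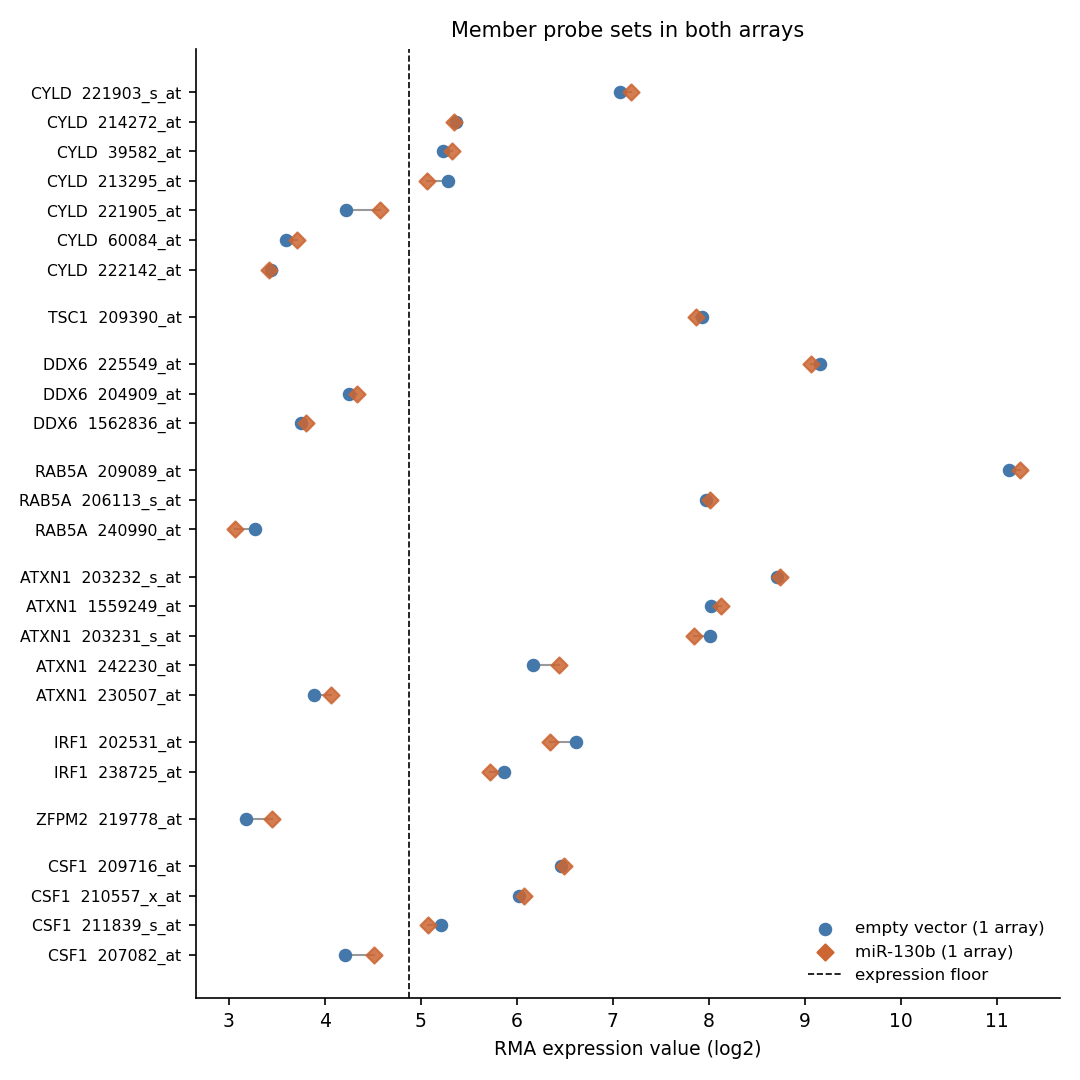
RMA expression on the log2 scale (x axis) of every member probe set (rows, grouped by gene) with the empty vector (circles) and with miR-130b (diamonds). The dashed line is the floor of 4.88; both symbols of a row lie close together in all 26 rows, and levels may be compared within a row only.

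The log2 difference of miR-130b from the empty vector had a median of 0.03 over the 7 members, and that of all measured genes was also 0.03. Over the 17 measured member probe sets the differences ran from -0.27 to 0.27, with 8 lower and 9 higher. These extremes correspond to 1.21-fold in either direction. The only spread the arrays offer is the disagreement between probe sets of the same gene. Its pooled SD was 0.202 on the log2 scale over 6047 genes with at least 2 measured probe sets. This SD holds no error between arrays or cultures that the probe sets of a gene share. Of the 17 member probe sets 3, one each of CYLD, ATXN1 and IRF1, differed by more than this SD, as did 29.8% of all measured probe sets.

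**Figure D2:**
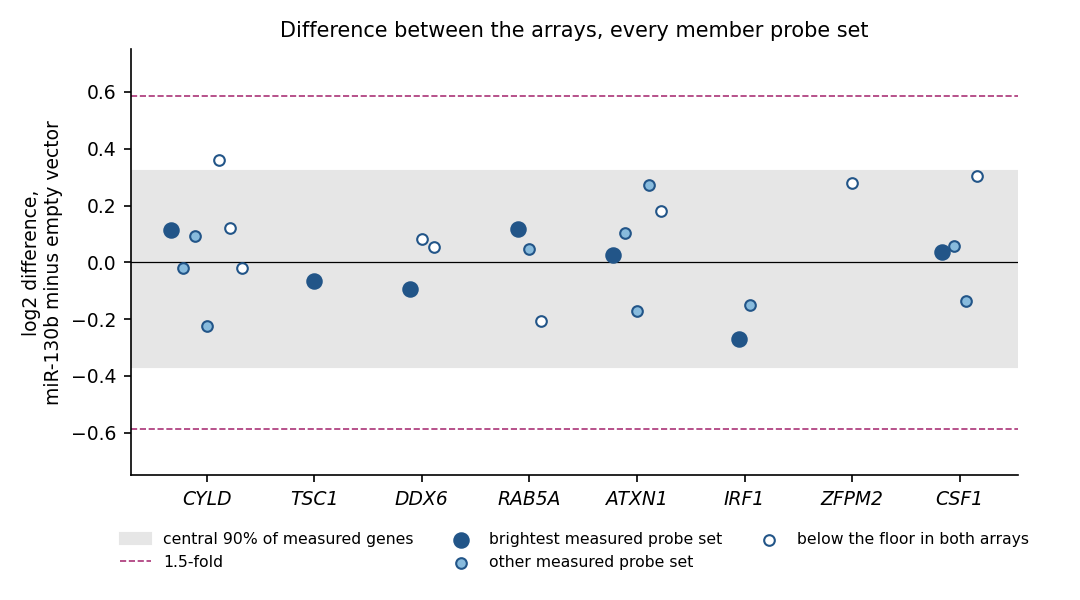
Log2 difference, miR-130b minus empty vector (y axis), of each probe set of the 8 genes (x axis); large filled points are the brightest measured probe set, small filled points the other measured ones and open points those below the floor in both arrays. The grey band is the central 90% of measured genes, from -0.37 to 0.32, and the dashed lines mark 1.5-fold; 1 open point of CYLD lies outside the band and no point reaches the lines.

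IRF1, a transcription factor induced by interferons that activates antigen presentation genes, was the member with the largest difference by its brightest probe set. Probe set 202531_at stood at 6.61 with the empty vector and 6.34 with miR-130b. The second, 238725_at, stood at 5.87 and 5.72. Both were lower with miR-130b, by differences of -0.27 and -0.15, and the first corresponds to 0.829 times the empty vector level. Of all measured genes 8.10% had a lower difference than IRF1, and 16.8% lay at least as far from 0 in either direction.

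CYLD, a deubiquitinase that removes linear and K63-linked ubiquitin chains and restrains NF-kappaB, had the most probe sets, 7, of which 4 were measured. The brightest, 221903_s_at, stood at 7.08 with the empty vector and 7.19 with miR-130b, a difference of 0.11. Next, 214272_at stood at 5.37 and 5.35, a difference of -0.02, and 39582_at at 5.24 and 5.33, a difference of 0.09. The fourth, 213295_at, stood at 5.28 and 5.06, a difference of -0.22. Of the measured CYLD probe sets 2 were thus lower and 2 higher, and their mean difference was -0.01. Below the floor, 221905_at had the largest difference of any member probe set, 0.36, from 4.22 to 4.58. It was the only one of the 26 beyond 0.32 in size, and it was higher with miR-130b; 4.34% of all probe sets with a single symbol were higher by at least as much as that bound and 5.53% lower. Among 9196 probe sets within 0.5 of its mean level 8.08% differed by at least as much. The remaining CYLD probe sets, 60084_at and 222142_at, had differences of 0.12 and -0.02.

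TSC1, the scaffold subunit of the complex that holds mTORC1 in check, was covered by 1 probe set. Probe set 209390_at stood at 7.93 with the empty vector and 7.87 with miR-130b, a difference of -0.07. In 70.1% of measured genes the difference lay at least as far from 0.

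DDX6, an RNA helicase of processing bodies that links the deadenylase complex recruited by microRNAs to decapping, had 1 measured probe set. That probe set, 225549_at, stood at 9.16 and 9.07 in the empty vector and miR-130b arrays, a difference of -0.10. The others, 204909_at and 1562836_at, lay below the floor with differences of 0.08 and 0.05, so the sign differed between bright and dim probe sets of this gene.

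RAB5A, a small GTPase that directs fusion and maturation of early endosomes, was higher by a small amount in both measured probe sets. Probe set 209089_at stood at 11.13 with the empty vector and 11.25 with miR-130b, a difference of 0.12. For 206113_s_at the values were 7.97 and 8.01, a difference of 0.05. The third probe set, 240990_at, lay far below the floor at 3.27 and 3.07, with a difference of -0.21.

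ATXN1, which encodes ataxin-1, a chromatin-bound partner of the repressor CIC, showed the widest spread of measured probe sets among the 5 members with more than 1. Its brightest, 203232_s_at, stood at 8.71 with the empty vector and 8.74 with miR-130b, a difference of 0.03. The values of 1559249_at were 8.02 and 8.12, and those of 203231_s_at were 8.01 and 7.84. These are differences of 0.10 and -0.17. In 242230_at the difference was 0.27, from 6.17 to 6.44, and in 230507_at, below the floor, 0.18. Measured ATXN1 probe sets therefore covered 0.44 on the log2 scale, a wider range than in 74.2% of the 629 genes with equally many measured probe sets, and 3 of the 4 were higher with miR-130b.

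CSF1, the macrophage colony-stimulating factor, had 3 measured probe sets of both signs. Probe set 209716_at stood at 6.46 and 6.50 in the empty vector and miR-130b arrays, a difference of 0.04, and 210557_x_at at 6.02 and 6.08, a difference of 0.06. In 211839_s_at, just above the floor, the values were 5.21 and 5.07, a difference of -0.14. The fourth, 207082_at, lay below the floor at 4.21 and 4.51. Its difference of 0.30 was matched or exceeded by 11.5% of the 9380 probe sets within 0.5 of its level.

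ZFPM2, also called FOG2, a zinc finger cofactor of GATA factors, was not measured. Its single probe set, 219778_at, stood at 3.17 with the empty vector and 3.45 with miR-130b, both well under the floor. The difference of 0.28 there was matched or exceeded by 7.74% of 8316 probe sets of similar level. RMA values of dim probe sets carry residual background, which compresses folds, so a lower level of ZFPM2 with miR-130b could not have been seen.

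Probe sets of the same member agreed in sign in part of the members. Of the 5 members with at least 2 measured probe sets, IRF1 and RAB5A had all of them on the same side of 0, IRF1 lower and RAB5A higher, while CYLD, ATXN1 and CSF1 had both signs. Among all genes with at least 2 measured probe sets 49.0% had a single sign, and 2 of 5 members lies near that share. The share is not matched for the number of probe sets. IRF1 and RAB5A had 2 measured probe sets each, CYLD and ATXN1 4 each and CSF1 3. The 9 member probe sets below the floor were higher with miR-130b in 7 cases and lower in 2, where 49.6% of the 17739 probe sets below the floor were higher. Control transcripts differed along their length: the 3′ to 5′ signal ratio was 1.95 with the empty vector and 2.41 with miR-130b for ACTB, and 1.37 and 1.52 for GAPDH. The part of this in the disagreement between probe sets was not tested.

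**Figure D3:**
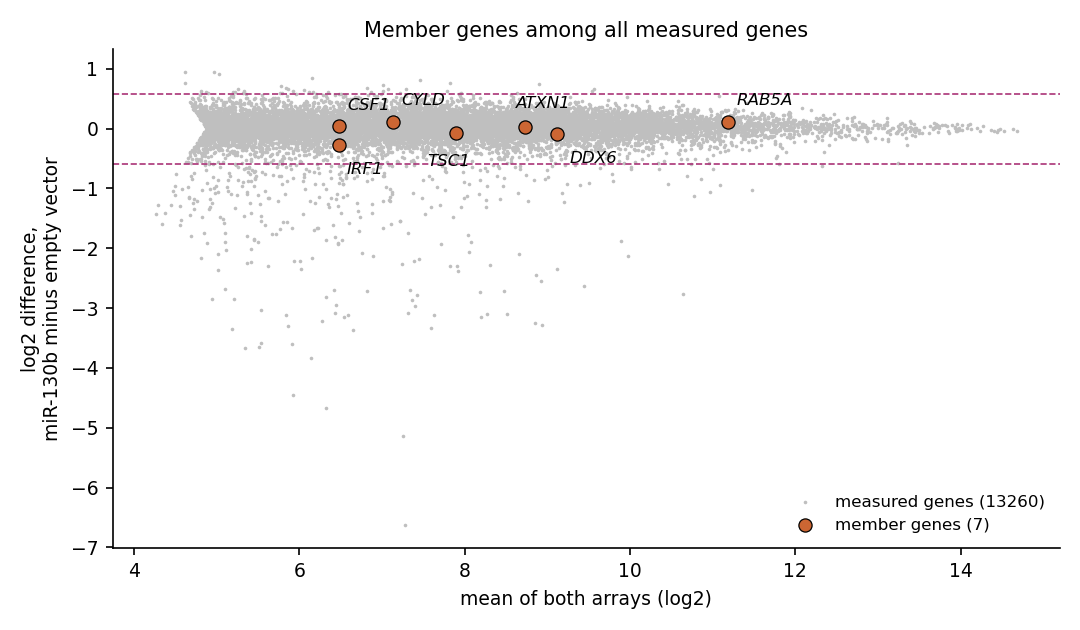
Log2 difference, miR-130b minus empty vector (y axis), against the mean of both arrays (x axis) for 13260 measured genes in grey and the 7 measured members in orange; dashed lines mark 1.5-fold. The members lie within the dense band around 0, from -0.27 for IRF1 to 0.12 for RAB5A, and none is among the points far below the lower line.

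Genes of liver tumour epithelium were measured in the cells, and so were some markers of other cell types. Of 6 listed liver tumour epithelial genes 5 could be named from a probe set, and these 5 were all measured, between 10.4 and 13.5 in both arrays. By the brightest probe set, ALB differed by -1.03, KRT8 by -1.05, AFP by -0.57, KRT18 by -0.27 and APOA2 by -0.05. Of all measured genes 2.68% were at least 1.5-fold lower. The leukocyte gene PTPRC and the monocyte gene CD14, whose cells bear the CSF1 receptor, lay below the floor in both arrays, whereas LYZ, CD163 and ITGAM, genes of myeloid cells, were measured. LYZ stood at 9.77 with the empty vector and 9.46 with miR-130b. Of 5 stromal and endothelial markers 3, PECAM1, COL1A1 and DCN, were measured, with PECAM1 at 8.51 and 8.72. PROM1, which encodes CD133, stood at 9.19 with the empty vector and at 6.07 with miR-130b by its brightest probe set. These are RNA values, whereas the cells are labelled negative for the surface protein.

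Partner genes of each member were read from lists and are described by counts beyond 1.5-fold and medians, beside the median of 0.03 over all measured genes and the 2.68% of them at least 1.5-fold lower and 0.294% at least 1.5-fold higher. For CYLD, the list of ubiquitin editing and NF-kappaB activation genes had 15 measured members, 0 beyond 1.5-fold in either direction and a median of 0.05. NFKB1, the p105/p50 subunit gene, differed by -0.34 and the adaptor gene TAB2 by 0.23 in its brightest probe set and 0.01 in the other. TNFAIP3, which encodes the ubiquitin-editing enzyme A20, had 0.11 in its brightest probe set and -0.21 in the other. For TSC1, 19 of 19 genes of the TSC complex and mTORC1 pathway were measured, 0 were beyond 1.5-fold and the median was -0.03. TSC2, the GTPase-activating partner of TSC1, differed by -0.22 and DDIT4, a stress-induced inhibitor of mTORC1, by 0.29. PRKAA1, a catalytic subunit of AMP-activated kinase, had -0.38 in its brightest probe set and was lower in all 4 measured ones, from -0.64 to -0.33. It was named because its difference was the largest of the TSC1 list, and 6.24% of all measured genes were lower by at least 0.32.

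The decapping and deadenylation genes around DDX6 also stayed within 1.5-fold. Of 20 listed genes 19 were measured, with a median of 0.08. PATL1, a decapping activator that binds DDX6, stood at 9.02 with the empty vector and 8.68 with miR-130b, a difference of -0.34, with all 4 of its measured probe sets lower by at least 0.16. PATL1 too was named for the largest difference of its list, beside the same 6.24% of all measured genes lower by at least 0.32. CNOT6L, a deadenylase subunit, had differences of 0.33 and 0.06 in its measured probe sets.

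Among early endosome genes the RAB5A paralogs were lower with miR-130b, while the measured probe sets of RAB5A were slightly higher. RAB5B stood at 8.01 with the empty vector and 7.59 with miR-130b, a difference of -0.41 from 1 probe set. RAB5C had differences of -0.21 and -0.33 in its 2 measured probe sets, against 0.12 and 0.05 for RAB5A. Both RAB5C values lie within the central 90% of measured genes, from -0.37 to 0.32. The first is close to the SD of 0.202 between probe sets, which 29.8% of all measured probe sets exceeded. For RAB5B, the share of measured genes lower by at least 0.32 was 6.24%. Both RAB5A values lie within the SD of 0.202 between probe sets, and its probe set below the floor had -0.21. By its brightest probe set, 51.6% of measured genes lay at least as far from 0 as RAB5A. RIN2, an exchange factor for RAB5, differed by -0.39. None of the 19 measured genes of the list reached 1.5-fold, and the median was -0.04.

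For ATXN1, 13 of 14 listed partners and CIC target genes were measured, with 0 beyond 1.5-fold and a median of 0.03. The paralog ATXN1L had 0.10 in its brightest probe set and -0.06 in the other, and CIC differed by 0.13. ANP32A, a nuclear phosphoprotein that binds ataxin-1, had -0.29 in its brightest probe set and a mean of -0.14 over 3, and SPRED1, an inhibitor of the RAS pathway, had 0.28 and 0.10 in its 2 measured probe sets.

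The interferon and IRF1 target list held 1 gene at least 1.5-fold lower and 0 higher among 21 measured, against 2.68% and 0.294% of all measured genes, with a median of 0.00. The gene was GBP1, an interferon-induced guanylate-binding protein, at 6.14 with the empty vector and 4.11 with miR-130b. The latter lies below the floor, so GBP1 was measured by this probe set through the empty vector array only, where it stood 2.39-fold above the floor. All 3 of its measured probe sets were lower, by differences from -2.03 to -0.56. The smallest, under 1.5-fold, belonged to the only one without an _x_at or _s_at suffix. IRF2, the antagonist paralog of IRF1, differed by 0.25.

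Of 16 measured GATA cofactor genes around ZFPM2, 2 were at least 1.5-fold lower and 0 higher, against 2.68% and 0.294% of all measured genes, with a median of -0.03. GATA6 stood at 7.33 with the empty vector and 3.69 with miR-130b, both from 1 probe set. Its value with miR-130b lies below the floor, so GATA6 was measured through the empty vector array only, where it stood 5.47-fold above the floor. GATA2 had -1.06 in its brightest probe set, with a mean of -0.52 over 3. GATA4, the best known partner of ZFPM2, had -0.15 in its brightest of 5 measured probe sets, which ran from -0.38 to 0.14. The paralog ZFPM1 had 0.06 and, in a dimmer probe set, -0.49.

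Few cytokine genes around CSF1 were measured, 5 of 11 listed. KITLG, the ligand of the receptor KIT, stood at 5.72 with the empty vector and 3.98 with miR-130b, by 1 probe set. The second value lies below the floor, so KITLG was measured through the empty vector array only, where it stood 1.79-fold above the floor. It was the 1 gene of the 5 beyond 1.5-fold, against 2.68% of all measured genes at least 1.5-fold lower, and the median was -0.05. CSF1R, the receptor for CSF1, lay below the floor at 4.42 and 4.47. IL34, its second ligand, differed by -0.05.

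A further list of 22 reported family targets outside the 8 genes had 14 measured members, of which 2 were at least 1.5-fold lower and 0 higher, against 2.68% and 0.294% of all measured genes. These were TP53INP1 and BMPR2, with differences of -1.18 and -0.80 in their brightest probe sets, and the median of the 14 was -0.15. With the mean of probe sets these values were -0.63 and -0.41, so that BMPR2 was no longer beyond 1.5-fold. The 2 measured probe sets of TP53INP1 ran from -1.18 to -0.07, and the 4 of BMPR2 from -0.80 to -0.04. The list was chosen with earlier results of these data known, so its count beside the background is not independent support. TIMP2, a metalloproteinase inhibitor named after its values were seen, was beyond 1.5-fold in the mean of probe sets, at -0.64, with probe sets from -0.95 to -0.32.

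**Figure D4:**
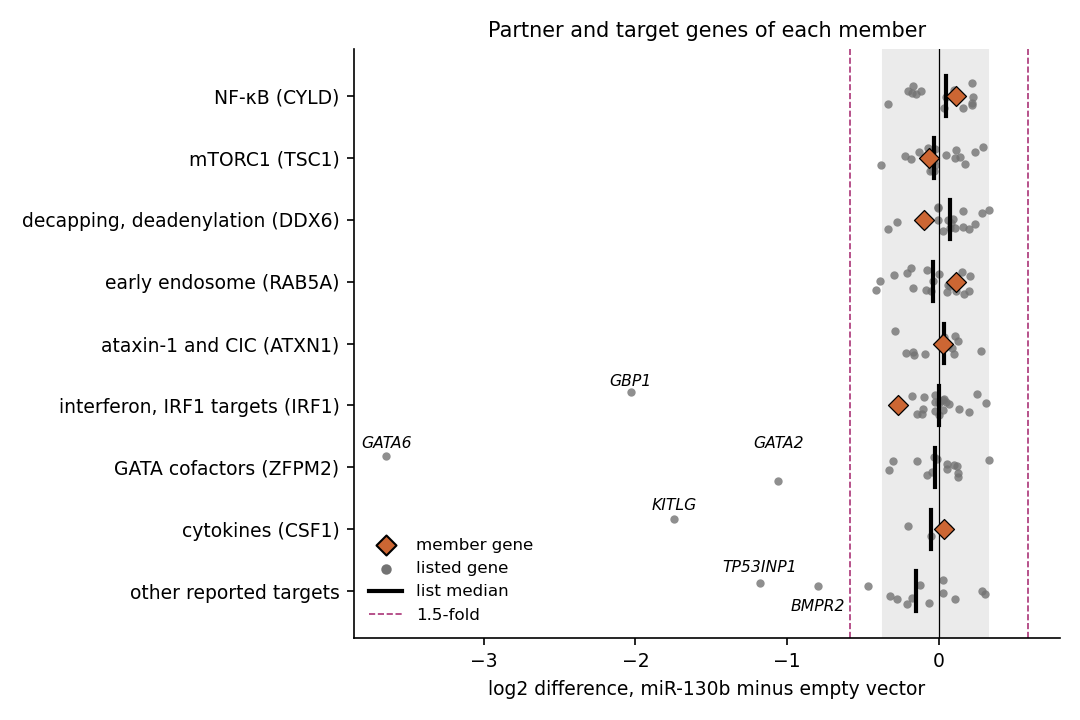
Log2 difference, miR-130b minus empty vector (x axis), of the measured genes of 9 lists (rows, small grey points), with the list median as a black bar and the member gene of the row as an orange diamond; ZFPM2 has no diamond because it was not measured. The grey band is the central 90% of measured genes and the dashed lines mark 1.5-fold; the 6 labelled genes, from GATA6 to BMPR2, are the only points beyond them and all are lower.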

How the data were processed

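The file deposited by the authors holds log2 expression values of 54675 probe sets in both arrays. RMA is named, without version or settings, in the submitters' processing notes. RMA corrects background, gives arrays a shared distribution and summarises probes. Which arrays entered that normalization is not given in the sources used here. Names came from the platform annotation held by GEO. It gave 1 symbol to 41091 of the 54613 non-control probe sets, several to 1801 and none to 11721; only the first kind was used. All 26 member identifiers were found in the RefSeq gene table. Differences were taken as miR-130b minus empty vector, and 1.5-fold (0.585 on the log2 scale) was a rule of size, not a test. No fit or p-value was possible with 1 array per group. Precision is set by the number of arrays.

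The members and gene lists were chosen with earlier results of these data known. Named partners were the closest paralogs or partners, plus genes beyond 1.5-fold (at most 6 per list) or otherwise the 2 with the largest differences. The computation was tested on simulated data. Alternatives were: the floor dropped, or raised to the 75th percentile (6.98), averaging a gene's measured probe sets, leaving out _x_at and _s_at probe sets, loess centring with a span of 0.3, median centring and a bound of 0.32 in place of 0.585. Python 3.11.15, numpy 2.4.6, pandas 2.3.3, statsmodels 0.14.6 and matplotlib 3.10.9 were used.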

Additional observations from a re-analysis of the deposited data

How the results depend on the processing

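No member gene reached 1.5-fold under any of the 6 alternative settings, nor 0.32 on the log2 scale in the main setting. The members' median lay between -0.02 and 0.03. All 40 single-member values stayed within 1 SD between probe sets (0.202) of the main value, and 5 changed sign, all of them from main values smaller than 0.12 in size. The 40 leave out ZFPM2, which has a value only without a floor, and IRF1 and CSF1 with the higher floor (75th percentile), where no probe set of theirs is left. Of 162 list results 158 kept their value by the same measure or their count within 1.5 times. Genes at least 1.5-fold lower numbered 0 of 14 in the IRF1 list and 0 of 2 in the CSF1 list with the higher floor, and 0 of 15 in the IRF1 list without suffixed probe sets. In the ZFPM2 list the number was 1 of 16 with the mean of probe sets. Fewer genes or other probe sets enter each of these. No paired analysis was possible because each group holds 1 array.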
